A study of Homo sapiens with 2 samples.

Results

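The genes described here encode the proteases of the chymase locus and other contents of the mast cell secretory granule. The 9 members were picked by name. They are CMA1, CTSG, GZMH and GZMB, which form a protease cluster on chromosome 14, ENSG00000258744, a gene on the strand opposite CMA1, and CPA3, HDC, SRGN and NDST2, which lie elsewhere. Of these 9 genes, 6 had a value among the 14467 genes of the tables, and GZMH, SRGN and NDST2 had none. The RNA came from extracellular vesicles, small membrane particles shed into the medium, of LAD2, a human mast cell line. The labels give no treatment or genotype. Cultures were kept with stem cell factor in SP34 medium at 37 °C under 5% CO2, and vesicles were taken after 4 days. There were 2 libraries of this 1 group and no comparison group, so genes were compared with each other and with the rest of the tables. LAD2 is 1 cell line, nothing in the labels says that the replicates were separate cultures, and the spread between them may be technical.

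Mast cell granules hold serine proteases, a carboxypeptidase and histamine packed on a sulfated proteoglycan. Chymase (CMA1) cleaves after aromatic residues and converts angiotensin I to angiotensin II. Cathepsin G (CTSG) is a related protease of mast cells and neutrophils, and granzymes B and H (GZMB, GZMH) are best known from cytotoxic lymphocytes. Carboxypeptidase A3 (CPA3) trims C-terminal residues, histidine decarboxylase (HDC) makes histamine, serglycin (SRGN) is the core protein that carries heparin, and NDST2 sulfates heparin, without which mouse mast cells store little protease.

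Values were deposited on a log2 scale, and a linear value below is 2 to the power of the deposited one. To set genes beside each other, linear values were divided by the kilobases of exon in GENCODE 29 on GRCh38, written as per kb. The estimated depth, which rests on the read scale described below, came to 2080000 reads for replicate 1 against 1590000 for replicate 2. Whether reads were counted by strand was not given in the sources used here. A value may therefore hold RNA of either strand of its gene. In bulk vesicle RNA, few vesicles with many copies and many vesicles with few copies cannot be told apart.

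Cluster geometry bears on what 2 of these values can measure, so the sequences concerned come first. All of the 300 bases around the CMA1 start, chr14:24508216-24508515 (GRCh38.p14, minus strand, RefSeq), lie inside the second exon of ENSG00000258744, which runs from 24508134 to 24508688 on the plus strand. The capitals mark the 50 bases that belong to the first exon of CMA1.
CMA1: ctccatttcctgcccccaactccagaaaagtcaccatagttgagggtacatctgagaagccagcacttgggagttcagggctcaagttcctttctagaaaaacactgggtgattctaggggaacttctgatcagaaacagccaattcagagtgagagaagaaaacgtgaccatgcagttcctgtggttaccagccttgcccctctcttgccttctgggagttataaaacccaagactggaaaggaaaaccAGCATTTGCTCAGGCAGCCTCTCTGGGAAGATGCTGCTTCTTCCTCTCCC
The letters TATAAA, searched on both strands, occurred in this window and in none of the other members' windows, and 11.5% of 35116 RefSeq start windows of the same length held them. The letters GATAA, the core bound by GATA factors, were found in the windows of CPA3, GZMH and HDC on either strand, against 22.7% of all windows. Windows were on hand for 7 of the 9 members.

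The granzyme genes were close enough in sequence to share reads. Their coding sequences were 80.9% identical over 734 aligned bases. The longest identical run had 106 bases and is given in capitals within bases 232 to 377, counted from the start codon, from the GENCODE 29 transcripts on chromosome 14.
GZMB: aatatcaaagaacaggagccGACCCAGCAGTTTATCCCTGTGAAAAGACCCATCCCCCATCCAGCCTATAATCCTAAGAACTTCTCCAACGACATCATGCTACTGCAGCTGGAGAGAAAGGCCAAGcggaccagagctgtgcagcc
GZMH: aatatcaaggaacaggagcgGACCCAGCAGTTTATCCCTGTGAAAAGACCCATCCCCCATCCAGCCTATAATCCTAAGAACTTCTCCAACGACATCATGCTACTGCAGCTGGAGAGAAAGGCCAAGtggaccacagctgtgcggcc
Of the 919 windows of 50 bases in the GZMB transcript, 57 occurred unchanged in the GZMH transcript. The other pairs of cluster proteases shared 0 such windows, and their coding sequences were 65.9% to 71.0% identical. How reads matching both granzymes were counted was not given in the sources used here. Both the GZMB value and the missing GZMH row carry that uncertainty.

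Of the proteases, CTSG had the highest value. It stood at 5.35 in replicate 1 and 5.44 in replicate 2 on the log2 scale (5.40 ± 0.06, SD, n = 2), a linear value of 40.8 and 43.5. The gene lies at 24573522 to 24576260 on chromosome 14, minus strand, and GENCODE 29 places no gene opposite it. Per kb it had 30.7 ± 1.36 (SD, n = 2), above 81.4% of the 13733 genes with a length. By level alone, the 3 named genes nearest to CTSG over the 2 libraries were HMGN2, PYGB and TBCB, at distances of 0.0071, 0.016 and 0.016 log2 units.

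GZMB followed among the proteases at 3.49 in replicate 1 and 3.46 in replicate 2 (3.48 ± 0.02, SD, n = 2), or 7.89 ± 0.121 per kb. It spans 24630954 to 24634267 on the minus strand. CMA1 stood at 2.53 in replicate 1 and 2.52 in replicate 2 (2.52 ± 0.01, SD, n = 2), or 6.14 ± 0.0241 per kb, and covers 24505353 to 24508265. GZMH, between CTSG and GZMB at 24606480 to 24609699, had no row in either table. All 4 proteases are transcribed from the minus strand. ENSG00000258657, an antisense gene on the plus strand that spans both granzymes without sharing an exonic base with them, also had no value.

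ENSG00000258744 was higher than the chymase gene it faces. It stood at 4.08 in replicate 1 and 4.04 in replicate 2 (4.06 ± 0.03, SD, n = 2), and at 23.9 ± 0.541 per kb. The whole first exon of CMA1, 88 bases from 24508178 to 24508265, is shared with it. CMA1 minus ENSG00000258744 was -1.56 in replicate 1 and -1.52 in replicate 2 on the log2 scale, and -1.96 on average after division by exonic length. This exceeded the spread of the deposited values of either gene between the libraries, a spread that is drawn together at low levels and understates that of the reads. The model of ENSG00000258744 used here has a single transcript of 698 bases, and the annotation behind the deposited values was not given in the sources used here.

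**Figure D1:**
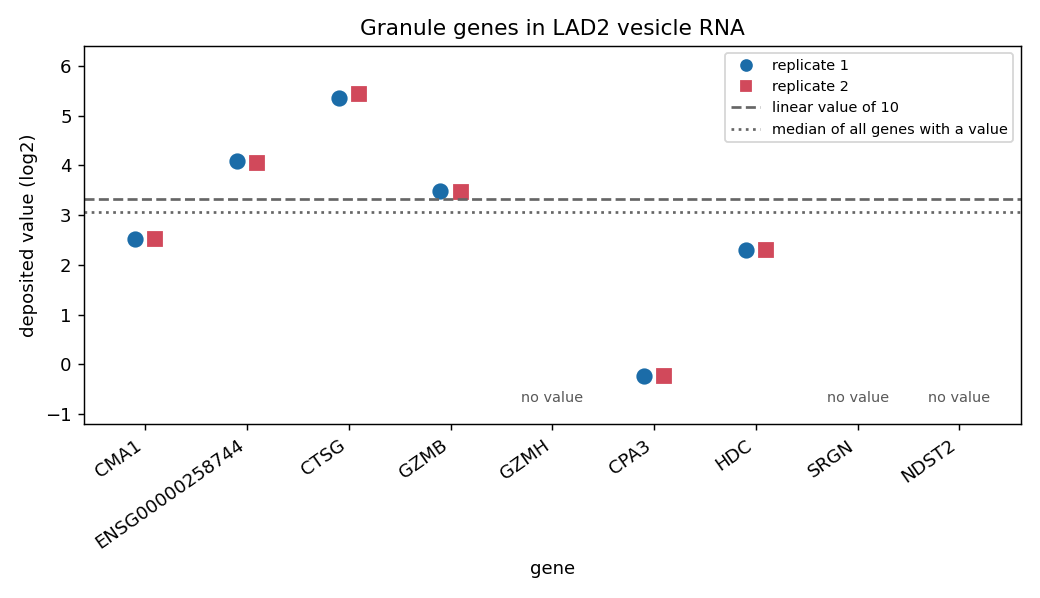
Deposited log2 value (y axis) of each gene (x axis) in replicate 1 (circles) and replicate 2 (squares), with the linear value of 10 and the median of all genes with a value as lines. CTSG, ENSG00000258744 and GZMB lie above both lines, CMA1, HDC and CPA3 below both, and GZMH, SRGN and NDST2 have no value.

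The other granule genes were low or missing. HDC, on chromosome 15 from 50241947 to 50266026, stood at 2.29 in both libraries (2.29 ± 0.00098, SD, n = 2), or 1.24 per kb. CPA3, on chromosome 3 from 148865256 to 148897196, stood at -0.23 in replicate 1 and -0.24 in replicate 2, or 0.459 per kb, above 15.1% of genes with a length. The opposite-strand gene ENSG00000240521, which spans CPA3 but shares no exonic base with it, had 4.34 in both libraries and 14.3 per kb. SRGN, on chromosome 10 from 69088106 to 69104811, had no value and has no opposite-strand gene in GENCODE 29. NDST2, on the same chromosome from 73801911 to 73811798, had no value either. There, 3857 of the 4654 exonic bases of NDST2 are shared with ENSG00000272916, a longer gene on the same strand, which stood at 5.78 in replicate 1 and 5.57 in replicate 2. How reads on exons of both genes were assigned was not given in the sources used here. A missing row for NDST2 does not show that its RNA was absent.

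Of the 8 protein-coding members, 5 had a value, against 42.3% of all protein-coding genes of GENCODE 29. A linear value of at least 10 in both libraries was reached by 3 of the 6 members with a value, CTSG, ENSG00000258744 and GZMB, against 45.5% of all genes with a value. On the read scale described below, GZMB was under 10 in replicate 2, which left 2 members. Those 2, CTSG and ENSG00000258744, had no read estimate and were judged on their deposited values. Together the 6 genes held 0.0046% of the summed linear value in replicate 1 and 0.0044% in replicate 2.

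The order per kb was CTSG, ENSG00000258744, GZMB, CMA1, HDC and CPA3, and the 2 libraries of neighbouring genes did not overlap at any step. The steps were 1.28-fold from CTSG to ENSG00000258744, 3.03-fold to GZMB, 1.29-fold to CMA1, and 4.95-fold to HDC. No fold is given over CPA3, which rested on 2 reads in replicate 1 and none in replicate 2. These deposited values are drawn together between the libraries at low levels, so the absence of overlap says little about any step among the low genes or about the step of 1.28-fold.

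The low values could be traced to reads. Genes with few reads formed a ladder of value pairs, and the mean and the difference of a pair gave the reads in each library. Up to a linear value of 5.79, all 77 value pairs, held by 5733 genes, came out within 0.25 of whole reads in both libraries. In the deposited values, reads of 1 library raised the values of both. CPA3, with 2 reads in replicate 1 alone, had linear values of 0.850 in replicate 1 and 0.846 in replicate 2. The read scale puts the whole amount on the library that held the reads, an assumption that was not tested. On that scale, a single read stood for 0.843 linear units in replicate 1, against 1.16 for replicate 2. By this estimate, CPA3 rested on 2 reads in replicate 1 and 0 in replicate 2, and it shared its exact values with 752 other genes. HDC rested on 6 reads in replicate 1 and 4 in replicate 2, and CMA1 on 8 in replicate 1 and 4 in replicate 2.

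GZMB came out at 18 reads in replicate 1 and 6 in replicate 2, at a level where 74.7% of value pairs were still whole. On that scale, that is 15.2 against 6.97 linear units, a 2.17-fold ratio, while the deposited values differed by 0.03 log2 units. On the same scale per kb, GZMB had 10.7 in replicate 1 and 4.94 in replicate 2, and CMA1 7.19 in replicate 1 and 4.96 in replicate 2. The libraries of these 2 genes overlapped there, and in replicate 2 CMA1 stood above GZMB, so GZMB and CMA1 did not differ beyond their spread. ENSG00000258744 and CTSG lay above the levels where the estimate gives whole reads. Even numbers of reads were the common case, with 2406 genes on even and 813 on odd steps among genes with reads in replicate 1 alone. Separate counting of paired mates was not tested, and no counting interval is given for that reason.

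**Figure D2:**
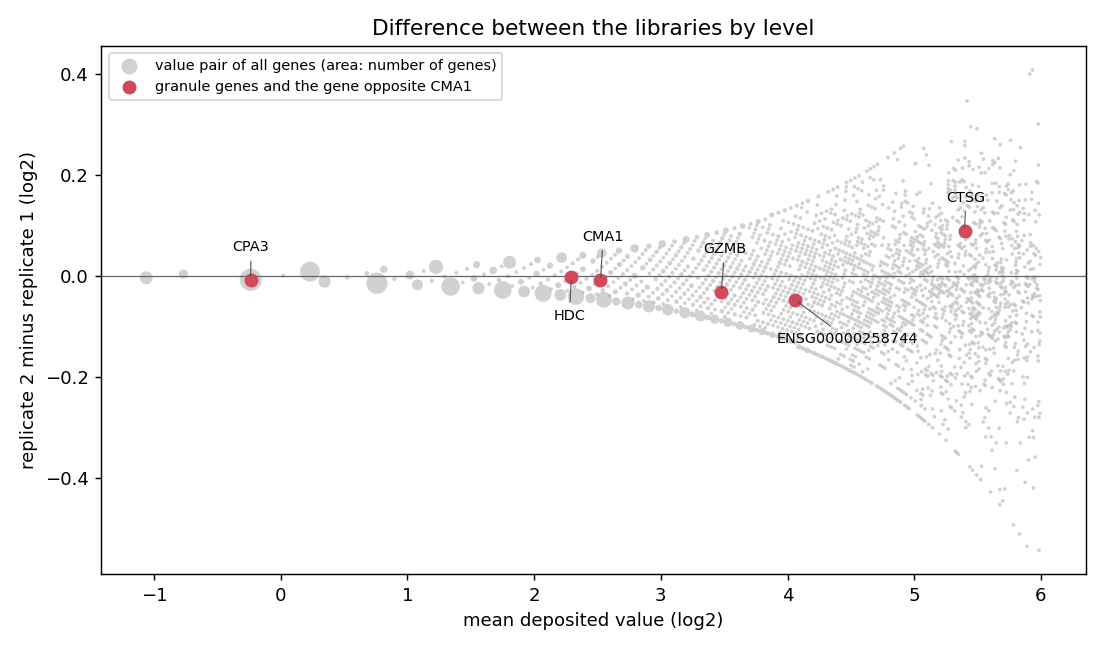
Difference between the libraries (replicate 2 minus replicate 1, log2, y axis) against the mean deposited value (log2, x axis) for every pair of values with a mean below 6, with grey point area growing with the number of genes. Low genes fall on a lattice of whole reads that narrows to the left; CPA3 lies on the point shared with 752 other genes, and CTSG, at a difference of 0.09, on the wide side.

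On the deposited scale, none of the 6 members differed 2-fold between the libraries, against 0.0899% of all genes with a value. The drawing together of low values leaves little room for such a difference, and on the read scale GZMB differed 2.17-fold and CPA3 had reads in replicate 1 only. CTSG was higher in replicate 2 by 0.09 log2 units, and 50.2% of the 1090 genes of like level had a larger difference. GZMB, ENSG00000258744, CMA1, HDC and CPA3 were lower in replicate 2 by 0.05 or less. Centred on the median of all genes, CMA1, HDC and CPA3 were instead higher in replicate 2, by 0.0054, 0.012 and 0.0067 log2 units. For each of these 6 genes the SD of the deposited values was smaller than the spread between the libraries of all genes within 0.5 log2 units of it, which is the SD of their differences put on the scale of 1 library. That spread was 0.0055 around CPA3, whose SD was 0.0047, and 0.0973 around CTSG. Both the SD and the spread are drawn together alike, so this says nothing of how well the reads of the libraries agreed.

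Within 200 kb of the chymase locus, most neighbours with a value were higher per kb than the cluster genes. The 5 cluster genes span 133 kb of chromosome 14, and 15 further genes lie within 200 kb of them. Of these 15, 9 had a value, all at a linear value of at least 10, with a median of 92.2 per kb. The 4 cluster genes with a value had a median of 15.9 per kb. CIDEB, a lipid droplet protein gene, had 368 per kb, SDR39U1, a dehydrogenase-like gene, 308, and KHNYN, a cofactor of the antiviral protein ZAP, 135. NOP9, CBLN3, LTB4R2 and LTB4R, the last 2 being leukotriene B4 receptor genes, had 92.8, 92.2, 90.8 and 32.6 per kb. By their means these 7 lay above CTSG, the highest cluster gene. LTB4R overlapped it, at 29.8 in replicate 1 and 35.5 in replicate 2, against 29.7 and 31.7 for CTSG. RIPK3, a kinase of necroptosis, had 5.69 and STXBP6, on the granzyme side, 1.68. The span of CIDEB overlaps those of NOP9 and LTB4R2 on the other strand, and the spans of CBLN3 and SDR39U1 overlap that of KHNYN. Values of these neighbours may therefore hold RNA of the opposite gene, and their shared exonic bases were not measured. ADCY4, NFATC4, NYNRIN, ENSG00000258973 and a U6 gene were among the 6 neighbours without a value. The relation turned with the window, since the median of 27 genes with a value within 500 kb was 5.69 per kb, below that of the cluster.

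**Figure D3:**
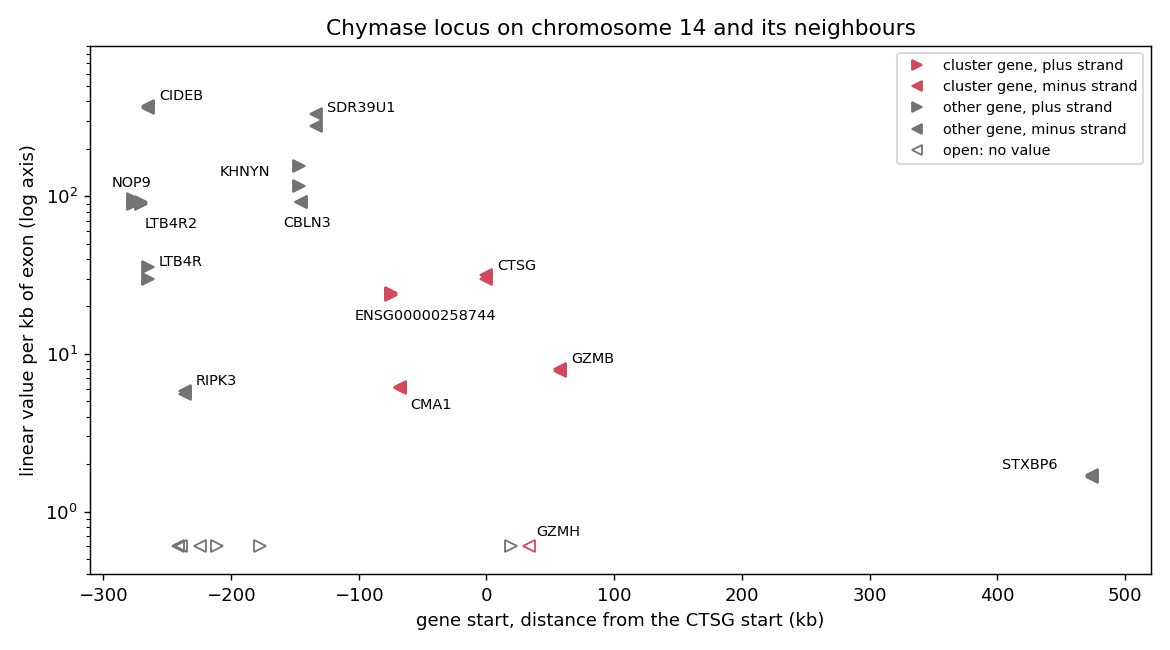
Linear value per kb of exon (log axis, y) against the distance of each gene's start from the CTSG start (kb, x) for the chymase cluster (red) and its neighbours within 200 kb (grey); each gene has 1 marker per library, pointing right for the plus and left for the minus strand, and open markers at the bottom have no value. By mean, the cluster genes with a value lie at 6.14 to 30.7 per kb, below 7 of the 9 neighbours with a value. Among those 7, the libraries of LTB4R overlap those of CTSG.

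The tryptase genes were below a linear value of 10, with levels per kb on both sides of the protein-coding median. In a list of 8 granule serine proteases, 7 had a value, against 42.3% of protein-coding genes, and 2 reached a linear value of 10, CTSG and GZMB, against 45.5% of all genes with a value. The median was 4.66 per kb, against 1.60 for all protein-coding genes with a value. Without division by length the order turned, with a median log2 value of 2.52 against 2.99. The tryptase genes TPSB2, TPSAB1, TPSD1 and TPSG1 had 4.66, 3.33, 1.32 and 0.676 per kb. Reads that match more than 1 of these genes may be split between them, and how alike their sequences are was not measured. TPSAB1 had an estimated 12 reads in replicate 1 and 0 in replicate 2, and TPSB2 had 8 in each. Of 6 other cytotoxic granule genes, NKG7 alone (16.7%, against 42.3% of protein-coding genes) had a value, 5.38 per kb. The granzymes GZMA, GZMK and GZMM and the pore former PRF1 had none.

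Enzymes that activate or oppose the granule proteases had a wider range. CTSC, the peptidase that activates chymase, cathepsin G and granzymes, had 0.692 per kb. LXN, an inhibitor of A-type carboxypeptidases, had 96.5 per kb and log2 values of 7.14 in replicate 1 and 7.22 in replicate 2. LXN shares 45 exonic bases with GFM1 on the other strand, which had 0.921 per kb. The carboxypeptidases CPM and CPB1 had 25.1 and 2.89 per kb. In this list, 5 of the 9 genes (55.6%) had a value, against 42.3% of protein-coding genes. Of 11 serpins and other inhibitors, 5 had a value, a share near the 42.3% of protein-coding genes, and A2M, a broad protease trap, led with 56.4 per kb. The serpins SERPING1, SERPINB1, SERPINA3 and SERPINB6 had 1.61, 1.20, 0.506 and 0.0642 per kb.

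Proteoglycan synthesis had a value for 14 of 30 genes (46.7%), a share near the 42.3% of protein-coding genes. Of the 14, 4 had a linear value of at least 10, against 45.5% of all genes with a value, and the median was 1.34 per kb. CHST11, a chondroitin sulfotransferase, had 15.2 per kb and SULF2, which removes sulfate from heparan chains, 12.01. B4GALT7 and XYLT1, which build the linker between core protein and chain, had 2.54 and 2.22 per kb. XYLT1 shares 224 exonic bases with ENSG00000261448 on the other strand, which had 33.7 per kb. NDST1, the relative of NDST2 found in most tissues, had 0.123 per kb, and NDST3 and NDST4 had no value.

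For histamine, 2 of 10 genes (20%) had a value, HDC and SLC18A2, against 42.3% of protein-coding genes. SLC18A2, the transporter that loads histamine into granules, stood at 7.78 in replicate 1 and 7.76 in replicate 2 and had 52.5 per kb. It shares 2157 exonic bases with PDZD8 on the other strand, which had 576 per kb, and 105 with SLC18A2-AS1, which had 1331 per kb. Neither breakdown enzyme, HNMT or AOC1, and none of the 4 histamine receptors had a value. Among 8 receptors and substrates of granule proteases, 3 (37.5%) had a value, against the same 42.3%. AGT, the angiotensin precursor, had 306 per kb, and the protease-activated receptor genes F2RL2 and F2RL3 had 11.99 and 4.47.

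**Figure D4:**
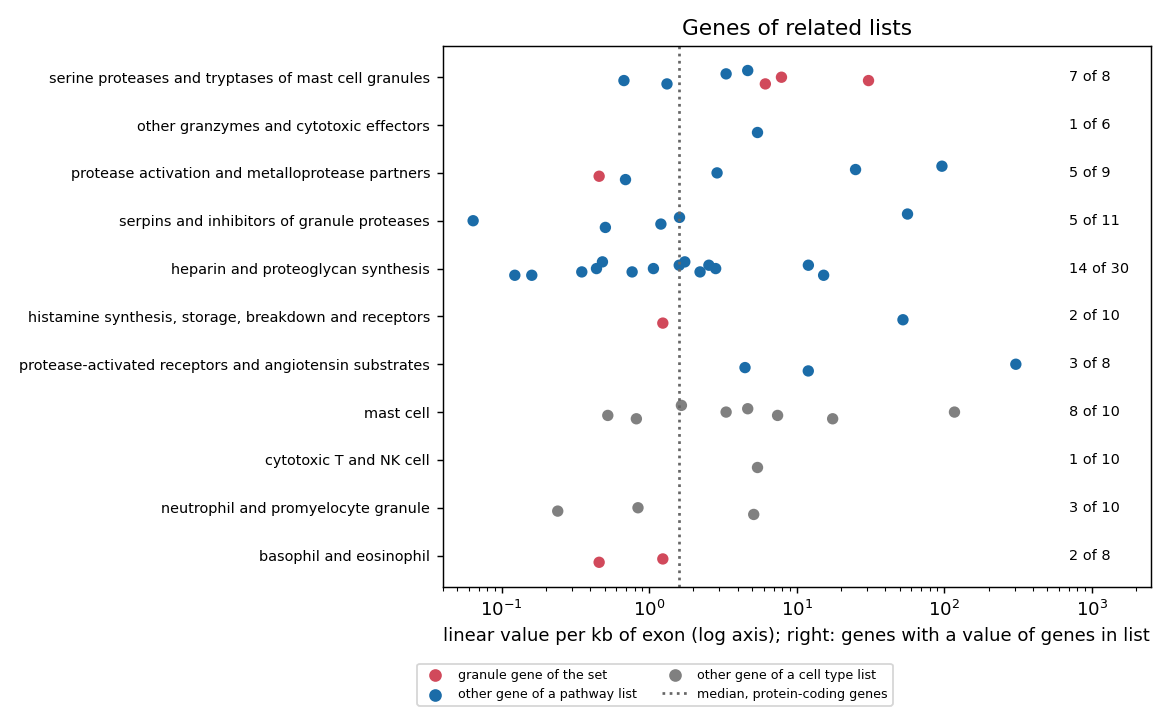
Linear value per kb of exon (log axis, x) of every gene with a value in 7 pathway lists and 4 cell type lists (rows), with the number of genes with a value at the right and the median of protein-coding genes as a dotted line. Granule genes of the set are red; among the serine proteases CTSG is farthest right at 30.7 per kb, and LXN, SLC18A2 and AGT lead their own rows.

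Markers of mast cells had a value for 8 of 10 genes, against 42.3% of protein-coding genes. Their median was 3.99 per kb. Not divided by length, it was 2.67 on the log2 scale, below the 2.99 of protein-coding genes with a value. Their summed linear value was 560 in replicate 1 and 654 in replicate 2. GATA2, a transcription factor of mast cells, had 117 per kb and most of that sum, which was 84.6 in replicate 1 and 83.0 in replicate 2 without it. SIGLEC6 had 17.5 per kb and shares 425 exonic bases with ENSG00000268777 on the other strand, which had 14450 per kb. KIT had 0.820 per kb, from an estimated 8 reads in replicate 1 and 2 in replicate 2. Of the IgE receptor genes, FCER1A and FCER1G had no value, and MS4A2 had 0.525 per kb. MS4A2 rested on an estimated 0 reads in replicate 1 and 4 in replicate 2. The lists of other cell types that share granule proteases were short, and differences in their counts were not tested. Each count below stands against the same 42.3% of protein-coding genes. Cytotoxic T and NK cell markers had 1 of 10, NKG7, with a sum of 5.10 in replicate 1 and 4.96 in replicate 2. By the read estimate, NKG7 had 12 reads in replicate 1 and 0 in replicate 2. Neutrophil and promyelocyte markers had 3 of 10 with a sum of 12.3 in replicate 1 and 11.8 in replicate 2, led by AZU1 at 5.12 per kb. BPI had an estimated 5 reads and MPO 2 in replicate 1, both had 0 in replicate 2, and no estimate is given for AZU1. The near-equal sums of these drawn-together values therefore do not show reads in both libraries. ELANE and PRTN3, defining proteases of the neutrophil granule, had no value. Of 8 basophil and eosinophil markers, CPA3 and HDC alone had a value, and both are members picked here as mast cell granule genes. CLC, PRG2, PRG3, EPX, CCR3 and IL5RA had none. On the deposited scale no gene of these lists differed 2-fold between the libraries. On the read scale, 28 of the 46 list genes with a value had an estimate, and 24 of the 28 differed 2-fold or more, 21 of them with reads in 1 library only. Reads in 1 library only were also the common case among the 5733 genes up to a linear value of 5.79. Of those, 2406 and 813 sat on even and odd steps of replicate 1 alone, and 1103 and 268 on those of replicate 2 alone. The share past 2-fold over all genes on this scale was not measured. List genes had estimates up to a linear value of 12, so the ranges differ too. The 24 of 28 are therefore not a result about the list genes.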

How the data were processed

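Each library has a table by the authors whose column is called counts. These deposited numbers hold fractions and values below 0, and are log2 values. Per the submitters' processing notes, FastQC 0.11.5, STAR 2.6.1a and the build hg38 were used. The counter, its strand setting, the annotation and the transform were not given in the sources used here. Members were found by Ensembl identifier. Exonic length is the union of exons in GENCODE 29 (GRCh38, which is hg38), known for 13733 of 14467 identifiers, and a partner on the other strand has 1 or more exonic bases in common. The members and the gene lists were chosen with earlier results of these data known. Named were all members, genes overlapping them or lying within 200 kb of the cluster, the 3 genes nearest to CTSG, and the highest members of each list. Other list members were named after their values were seen. With 1 group of 2 libraries no test was made, and error is the SD of both libraries. Reads were estimated by solving the mean linear value and the log2 difference of each value pair for the reads in both libraries, with steps taken from genes with reads in 1 library. The solver, percentiles and overlaps were run on simulated or made-up inputs as a check of the code. The simulated pairs had the form that the solver assumes, without noise, so this does not test the read scale on these data. Coding sequences were aligned globally. Python 3.11.15, numpy 2.4.6, pandas 2.3.3, Biopython 1.88 and matplotlib 3.10.9 were used.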

Additional observations from a re-analysis of the deposited data

How the results depend on the processing

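The order of the 6 members per kb stayed the same with length taken from the longest transcript, from exon bases that no exon of the other strand covers, and with the deposited values of either library alone. With estimated reads for the low genes it held in replicate 1, while in replicate 2 CMA1 and GZMB changed places and 4 of 6 members kept theirs. With a threshold of 20 in place of 10, 1 member was left, CTSG, in place of 3. The difference of CMA1 from ENSG00000258744 was -1.54 without and -1.96 with division by exonic length. With the window of 100 kb or 500 kb, 7 or 31 genes had a value in place of 13. On deposited values, leaving out 1 library gave 3 members at the threshold each time and a CMA1 difference of -1.56 to -1.52. With estimated reads for the low genes and deposited values for CTSG and ENSG00000258744, 2 members reached the threshold in both libraries. Adding 1 or 5 to the linear values raised the low log2 levels most, CPA3 to 0.89 and 2.55 in place of -0.24. Centring on the median of all genes turned the library differences of CMA1, HDC and CPA3, all small, to higher in replicate 2. The read estimate and its alternatives were added after seeing the data. No paired analysis was possible because there was 1 group of libraries. Estimated depths were 2080000 and 1590000 reads, and why a gene has no value was not tested.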
